A study of Homo sapiens with 24 samples.

Results

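Proteasome genes were followed across flat culture and 3 spheroid formats in a pancreatic cancer line and a kidney line. The set held every gene of the deposited expression table whose symbol follows the proteasome naming pattern (PSMA to PSMG and a number) and that reached 1 FPKM (fragments counted, scaled by transcript length and library total) in at least 3 of the 24 libraries. Of 47 such symbols among the 26450 genes of the table, 46 met the rule. The other one, PSMB11, a catalytic subunit made in the thymus, was under 1 FPKM in every library. PSMB8 reached that level in 6 libraries, PSMD5 in 12, PSMB9 in 14 and PSMG4 in 23, and the other members in all 24.

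Bulk RNA sequencing covered 8 groups of 3 libraries. PANC-1, an epithelial line from a tumour of the pancreatic duct, and HEK293T, an epithelial line from embryonic kidney, were each grown in a dual-axis rotating capillary container (DRCC) at 30 rpm, in the DRCC at 1 rpm, in AggreWell plates, whose microwells gather cells into spheroids, and as a flat layer (2D). No drug, knockdown or transgene was named in the labels, and no culture time is used here. The labels do not say whether the 3 libraries of a group are separate cultures, so each p-value here reflects library-to-library spread alone, possibly technical.

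The proteasome is the protease that degrades proteins tagged with ubiquitin. Its core, the 20S particle, is a barrel of PSMA (alpha) rings that gate entry and PSMB (beta) rings that hold the catalytic sites. The 19S particle caps the barrel. Its PSMC ATPases unfold the substrate and thread it in, and its PSMD subunits bind and remove ubiquitin. Interferons induce alternative catalytic subunits (PSMB8, PSMB9, PSMB10) and the 11S activator (PSME1 and PSME2), which together favour peptides for MHC class I. When proteasomes are blocked, the transcription factor NFE2L1 raises the subunit genes together.

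Library depth, recovered from the steps of the FPKM values, was 32021638 to 39556154 fragments, and every member except PSMB8, PSMB9 and PSMD5 had over 100 fragments in every library. Both lines expressed the epithelial keratins KRT8 and KRT18. Genes listed for PANC-1 (CD44, AXL, TGFBI) were near 0 in HEK293T, and NEFL, listed for HEK293T, was near 0 in PANC-1. Some textbook markers of the labelled tissues were low or absent. CDH1 stayed under 1 FPKM and the duct gene CFTR at 0 in PANC-1, and PAX8, a kidney lineage gene, stayed at or near 0 in HEK293T. PAX2, another kidney lineage gene, was higher in PANC-1 (4.14 to 9.05 FPKM) than in HEK293T (1.26 to 1.88 FPKM). Summed leukocyte markers (4 genes) reached at most 1.99 FPKM and summed endothelial markers (3 genes) at most 0.0491 FPKM. Because RNA was pooled over whole cultures, fewer cells of a kind and less RNA per cell cannot be told apart.

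Most proteasome genes were lower in spheroids than in 2D, in both lines, while the median gene was slightly higher. In PANC-1 at DRCC 30 rpm, 34 of 46 members were lower and 9 higher than in 2D (limma with Benjamini-Hochberg adjustment over all genes tested, adjusted p under 0.05), beside 32.2% of 11585 genes lower and 53.6% higher. At DRCC 1 rpm the counts were 34 lower and 9 higher, beside 33.9% and 52.3% of all genes. AggreWell gave 26 lower and 12 higher, beside 24.1% and 45.9%. The same 3 comparisons share the 2D libraries, so they are not independent of each other. The median log2 change of the members was -0.34 at DRCC 30 rpm, -0.46 at DRCC 1 rpm and -0.15 in AggreWell, all on the log2(FPKM + 1) scale. The medians of all genes tested were 0.17, 0.15 and 0.098 in the same order, so the members lay 0.52, 0.61 and 0.25 log2 units below them.

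In HEK293T, where 44 members passed the filter on low values, 33 were lower and 9 higher at DRCC 30 rpm than in 2D, beside 35.5% of 12548 genes lower and 49.6% higher. At DRCC 1 rpm 34 were lower and 7 higher, beside 31.7% and 53.1% of all genes. AggreWell gave 33 lower and 8 higher, beside 26.8% and 48.6%. Member medians were -0.50, -0.46 and -0.34 at DRCC 30 rpm, DRCC 1 rpm and in AggreWell, and medians of all genes 0.13, 0.18 and 0.12. Scaling the libraries by median ratios moved the all-gene median of the DRCC comparisons to about 0 in both lines and lowered the member values by as much. The lines share no library. Of the 44 members tested in both, 27 were lower in both lines at DRCC 30 rpm (61.4%, beside 19.1% of the 10752 genes tested in both), 29 at DRCC 1 rpm (65.9%, beside 21%) and 26 in AggreWell (59.1%, beside 16.1%).

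Changes of most members were under 2-fold on the log2(FPKM + 1) scale, which understates the change of low genes. In PANC-1, 3 members were at least 2-fold lower at DRCC 30 rpm (PSMC3, PSME3 and PSMG1), 4 at DRCC 1 rpm and 0 in AggreWell, beside 3.26%, 3.72% and 0.224% of all genes. Members at least 2-fold higher on that scale were PSMB9 and PSME1 at DRCC 30 rpm, with PSMB8 added at DRCC 1 rpm, and 0 in AggreWell, beside 10.9%, 10.5% and 1.22% of all genes. In HEK293T 8 of 44 members were at least 2-fold lower at DRCC 30 rpm, 6 at DRCC 1 rpm and 0 in AggreWell. The constitutive beta genes gave 5 of the 8 and 3 of the 6. At least 2-fold higher were 2, 2 and 0 members. The 2-fold shares of all genes were not computed in HEK293T, so these counts are descriptive.

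**Figure D1:**
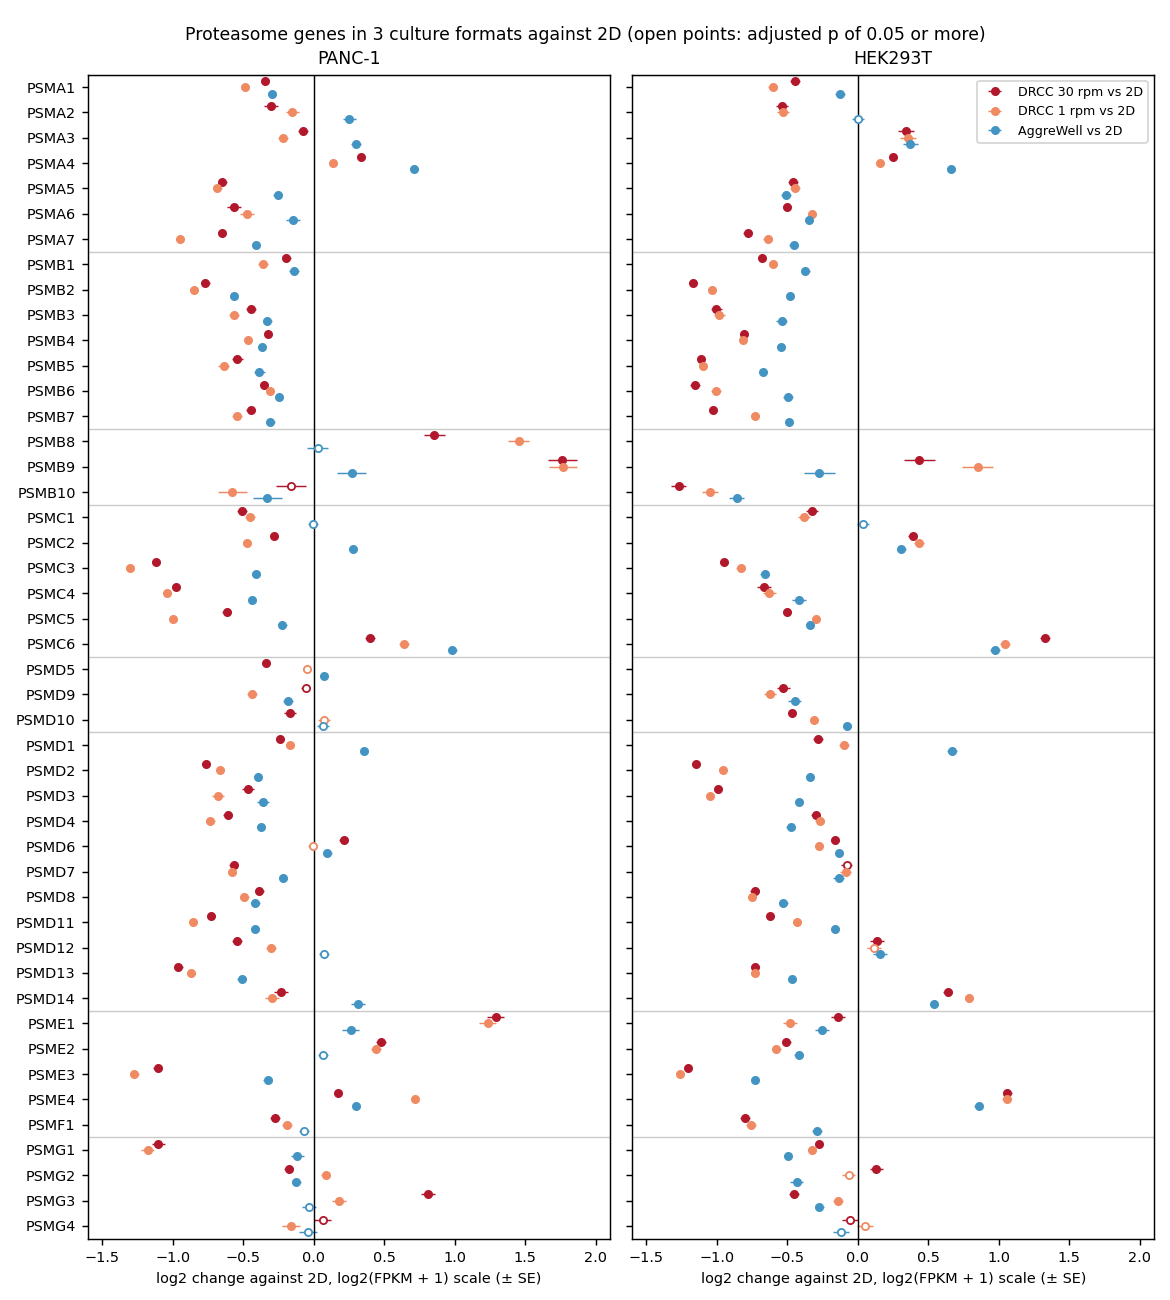
Log2 change against 2D of each of the 46 members (horizontal axis, log2(FPKM + 1) scale, with standard error) in PANC-1 (left) and in HEK293T (right), with members listed by class down the page and open points where the adjusted p was 0.05 or more. Most points lie left of 0 in both lines, with 34 of 46 called lower at DRCC 30 rpm in PANC-1 and 33 of 44 in HEK293T, and PSMB8, PSMB9 and PSME1 lie furthest right of 0 in PANC-1 at the DRCC speeds.

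The 14 constitutive genes of the 20S barrel, summed, stood at 1785 ± 33.1 FPKM at DRCC 30 rpm, 1652 ± 14.3 at DRCC 1 rpm, 1992 ± 14.5 in AggreWell and 2334 ± 59.8 in 2D in PANC-1 (SD, n = 3 each). In HEK293T the sums were 1467 ± 25.6, 1538 ± 10.6, 1892 ± 17.1 and 2508 ± 35.5 FPKM in the same order. All 7 constitutive beta genes were lower than in 2D in each of the 3 formats and in both lines. Of all genes, 24.1% to 33.9% were lower in PANC-1 and 26.8% to 35.5% in HEK293T. The median log2 change of these 7 beta genes in PANC-1 was -0.45 at DRCC 30 rpm, -0.54 at DRCC 1 rpm and -0.33 in AggreWell. In HEK293T it was -1.03, -0.98 and -0.50. Under the other scalings at least 6 of 7 stayed lower in PANC-1, where PSMB1 turned to a slightly higher value in AggreWell under quantile normalization, and all 7 stayed lower at both DRCC speeds in HEK293T.

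The catalytic subunits were among them. PSMB5, the subunit with chymotrypsin-like activity and the main target of proteasome inhibitors, had 105, 102 and 99.97 FPKM at DRCC 30 rpm, 96.5, 96.2 and 94.4 at DRCC 1 rpm, 111, 115 and 116 in AggreWell and 139, 155 and 155 in 2D in PANC-1. Its HEK293T values were 140.2, 138 and 139.8 at DRCC 30 rpm, 142, 139 and 143 at DRCC 1 rpm, 193, 186 and 188 in AggreWell and 302, 294 and 313 in 2D. In both lines 2D was highest, AggreWell next and both DRCC speeds lowest, with no overlap between DRCC, AggreWell and 2D. The log2 change at DRCC 30 rpm against 2D was -0.54 ± 0.039 (SE) in PANC-1 (limma, adjusted p = 1.1e-08) and -1.11 ± 0.025 in HEK293T (adjusted p = 2.6e-13).

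PSMB6, the subunit with caspase-like activity, had 187, 179.9 and 190.4 FPKM at DRCC 30 rpm, 189.5, 188 and 197 at DRCC 1 rpm, 201, 199.6 and 202 in AggreWell and 237, 237 and 241 in 2D in PANC-1. In HEK293T it had 95.2, 87.4 and 92.8, 98.9, 101 and 106, 144, 143 and 150.04 and 207, 202 and 209 FPKM in the same order of formats. All DRCC libraries lay below AggreWell and 2D in both lines, and the drop was steeper in HEK293T. Log2 changes at DRCC 30 rpm were -0.36 ± 0.026 in PANC-1 and -1.16 ± 0.035 in HEK293T, and the line difference itself was 0.80 ± 0.044 (limma interaction, adjusted p = 4.5e-13).

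PSMB7, the subunit with trypsin-like activity, followed at 139.998, 135 and 145 FPKM at DRCC 30 rpm, 136, 129 and 127 at DRCC 1 rpm, 150.4, 159 and 154 in AggreWell and 191, 187 and 197 in 2D in PANC-1. HEK293T gave 134, 129.9 and 131, 162, 161 and 162, 191, 188 and 196 and 279.6, 261 and 269 FPKM. Here too 2D stood above every spheroid library in both lines. PSMB7 changed by -0.45 ± 0.035 on the log2 scale in PANC-1 and by -1.03 ± 0.026 in HEK293T at DRCC 30 rpm (limma adjusted p = 2.6e-08 and 8e-13). PSMB2, a non-catalytic beta subunit, averaged 37.9 ± 0.438 FPKM at DRCC 30 rpm, 35.9 ± 0.352 at DRCC 1 rpm, 43.9 ± 0.654 in AggreWell and 65.5 ± 3.25 in 2D in PANC-1, and 32.7 ± 0.354, 36.001 ± 0.733, 53.3 ± 0.3902 and 74.8 ± 1.78 FPKM in HEK293T. It had the largest log2 change of the constitutive beta genes at DRCC 30 rpm in both lines, -0.77 ± 0.031 and -1.17 ± 0.026.

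Of the 7 alpha ring genes, 6 were lower and 1 higher in PANC-1 at each DRCC speed, against 4 lower and 3 higher in AggreWell. HEK293T had 5 lower and 2 higher at each DRCC speed, and 4 lower and 2 higher in AggreWell. At DRCC 30 rpm, DRCC 1 rpm and in AggreWell, 32.2%, 33.9% and 24.1% of all genes were lower in PANC-1. The shares higher there were 53.6%, 52.3% and 45.9%, so the 3 higher alpha genes in AggreWell are near the share of all genes. HEK293T shares were 35.5%, 31.7% and 26.8% lower and 49.6%, 53.1% and 48.6% higher. PSMA7, an alpha subunit and one of the most abundant members, had 225, 219.96 and 226 FPKM at DRCC 30 rpm, 182, 181 and 184 at DRCC 1 rpm, 262, 267 and 264 in AggreWell and 343, 352 and 362 in 2D in PANC-1, and 200.4, 186 and 194, 207, 215 and 219, 249, 238 and 243 and 338, 333 and 329.8 FPKM in HEK293T. No library of one format overlapped another in either line. The speeds stood in opposite order: DRCC 30 rpm was above DRCC 1 rpm by 0.30 ± 0.024 in PANC-1 and below it, at -0.14 ± 0.030, in HEK293T (limma adjusted p = 1.5e-07 and 0.0017). PSMA5 averaged 21.8 ± 0.343 FPKM at DRCC 30 rpm, 21.2 ± 0.783 at DRCC 1 rpm, 28.99 ± 0.186 in AggreWell and 34.8 ± 1.16 in 2D in PANC-1. In HEK293T it averaged 36.5 ± 0.593, 36.8 ± 0.975, 35.2 ± 1.81 and 50.5 ± 0.569 FPKM, with the 3 spheroid formats overlapping one another and all below 2D.

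A few subunits of the same particles ran the other way, and they are named here after their values were seen. PSMA4, an alpha subunit, was higher than 2D in all 3 formats of both lines as fitted, at 44.01, 44.3 and 44.5 FPKM at DRCC 30 rpm, 38.9, 38.9 and 37.7 at DRCC 1 rpm, 57.99, 57.7 and 58.1 in AggreWell and 33.5, 36.2 and 35.2 in 2D in PANC-1. HEK293T gave nearly the same levels, 43.7, 42.3 and 43.2, 39.6, 40.6 and 40.6, 57.9, 56.9 and 57.6 and 34.99, 36.5 and 36.6 FPKM. AggreWell was highest and 2D lowest in both lines, with no overlap between the formats. The increase was 0.71 ± 0.028 in AggreWell PANC-1 and 0.66 ± 0.026 in AggreWell HEK293T on the log2 scale (limma adjusted p = 1.3e-10 and 1.6e-10), while at DRCC 1 rpm it was only 0.14 and 0.16 and turned to -0.044 and -0.052 under median-ratio scaling. With the GC and length trend removed, PSMA4 in HEK293T turned to -0.24 at DRCC 30 rpm and -0.28 at DRCC 1 rpm. PSMA2 and PSMA3 were higher in AggreWell and lower at both DRCC speeds in PANC-1, by small amounts at some speeds. PSMA2 at DRCC 1 rpm (107 to 116 FPKM) overlapped 2D (115 to 131 FPKM). Its change there of -0.15 turned to 0.073 under quantile normalization. PSMA3 at DRCC 30 rpm (72.3 to 75.3 FPKM) overlapped 2D (75.1 to 79.8 FPKM). PSMA3 had log2 changes of -0.078, -0.22 and 0.30 at DRCC 30 rpm, DRCC 1 rpm and in AggreWell in PANC-1, and 0.34, 0.35 and 0.37 in HEK293T.

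**Figure D2:**
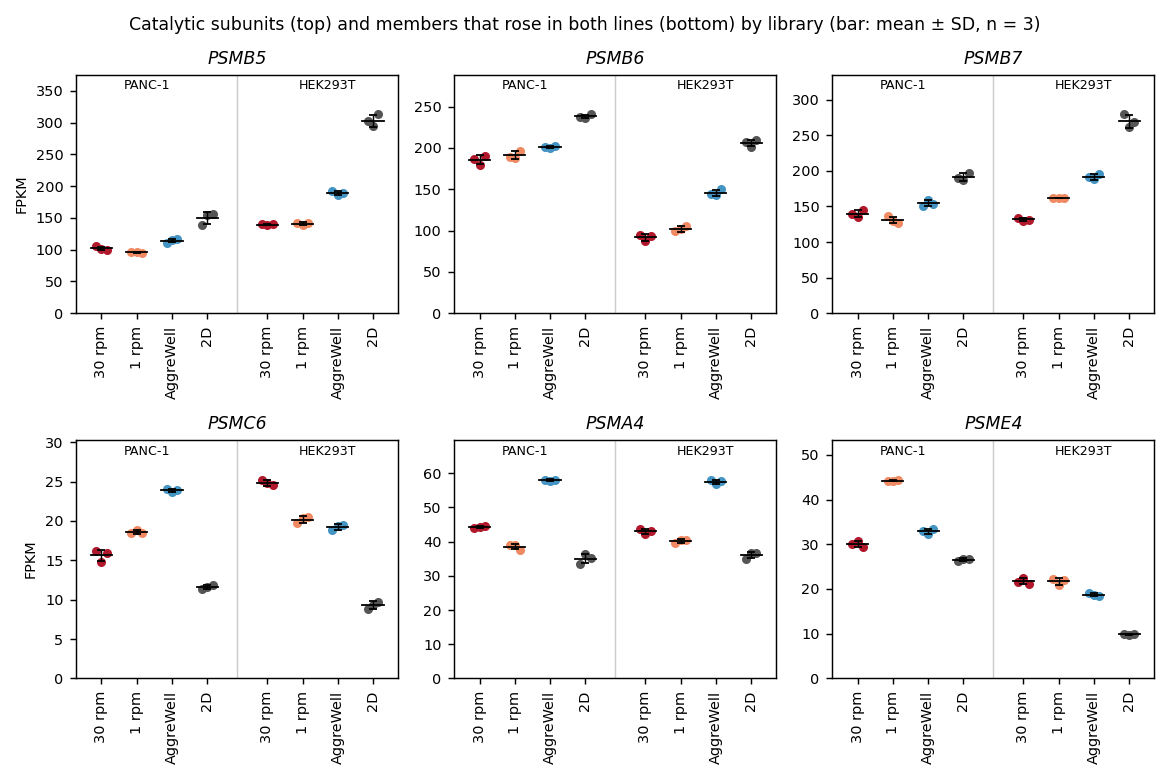
FPKM in each library (points) with the mean (line) and SD (error bar) of 3 libraries for PSMB5, PSMB6 and PSMB7 (upper row) and for PSMC6, PSMA4 and PSME4 (lower row), by format within each line. The 3 constitutive catalytic subunits are highest in 2D in both lines, whereas PSMC6, PSMA4 and PSME4 are lowest in 2D; median-ratio scaling turns the PANC-1 change of PSME4 at DRCC 30 rpm and the changes of PSMA4 at DRCC 1 rpm to just below 0, and removing the GC and length trend turns PSMA4 in HEK293T to -0.24 at 30 rpm and -0.28 at 1 rpm.

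Of the 3 interferon-inducible catalytic subunits, PSMB8 and PSMB9 were higher at both DRCC speeds in PANC-1, and PSMB10 was not. PSMB8, which replaces PSMB5 in the immunoproteasome, had 2.61, 2.14 and 2.18 FPKM at DRCC 30 rpm, 4.202, 4.41 and 3.45 at DRCC 1 rpm, 0.755, 0.922 and 0.915 in AggreWell and 0.812, 0.826 and 0.844 in 2D. Those values rest on 119 to 147, 193 to 241, 44 to 55 and 49 fragments a library. Both DRCC speeds stood clear of AggreWell and 2D, which overlapped. The log2 change against 2D was 0.85 ± 0.076 at DRCC 30 rpm (limma adjusted p = 1.1e-07), 1.45 ± 0.076 at DRCC 1 rpm (adjusted p = 3.4e-10) and 0.027 ± 0.076 in AggreWell (adjusted p = 0.76), a scale that understates changes at such low levels. PSMB8 reached 1 FPKM only in PANC-1 DRCC libraries, so it passed the filter through the groups where it was high. Its tests and its place in the counts of higher members are therefore no independent support. HEK293T libraries held 0 to 3 fragments of PSMB8 and it was not tested there.

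PSMB9, which replaces PSMB6, had 5.17, 5.12 and 4.81 FPKM at DRCC 30 rpm, 4.94, 5.37 and 4.83 at DRCC 1 rpm, 1.16, 1.51 and 0.813 in AggreWell and 0.646, 1.01 and 0.698 in 2D in PANC-1. In HEK293T it had 1.46, 1.28 and 0.725, 2.03, 1.72 and 1.77, 0.284, 0.283 and 0.342 and 0.708, 0.554 and 0.474 FPKM. DRCC libraries were above all AggreWell and 2D libraries in both lines, at low levels throughout. Against 2D the log2 change was 1.76 ± 0.10 and 1.77 ± 0.10 at DRCC 30 and 1 rpm in PANC-1 (limma adjusted p = 9.7e-10 and 9.3e-10), and 0.44 ± 0.11 and 0.85 ± 0.11 in HEK293T (adjusted p = 0.0023 and 8.1e-06). In HEK293T PSMB9 reached 1 FPKM only in DRCC libraries. It passed the filter there through the groups where it was high, so its HEK293T tests are no independent support. AggreWell differed in sign between the lines, at 0.27 ± 0.10 in PANC-1 and -0.27 ± 0.11 in HEK293T (line difference 0.54 ± 0.16, limma adjusted p = 0.006), and removing the GC and length trend turned the HEK293T value to 0.086.

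PSMB10, which replaces PSMB7, was the most abundant of the inducible subunits here. It had 16.1, 15.5 and 14.8 FPKM at DRCC 30 rpm, 11.2, 11.2 and 11.6 at DRCC 1 rpm, 10.8, 16.1 and 14.5 in AggreWell and 15.7, 19.3 and 17.5 in 2D in PANC-1, and 14.4, 14.4 and 13.8, 16.7, 15.4 and 18.1, 19.9, 17.8 and 19.99 and 35.3, 35.02 and 36.7 FPKM in HEK293T. In HEK293T 2D stood above every other library, while in PANC-1 DRCC 30 rpm and AggreWell overlapped 2D. Log2 changes at DRCC 30 and 1 rpm were -0.16 ± 0.10 and -0.58 ± 0.10 in PANC-1 (limma adjusted p = 0.16 and 1.3e-04) and -1.27 ± 0.055 and -1.05 ± 0.055 in HEK293T (adjusted p = 1.1e-10 and 8.2e-10). As a share of the inducible and constitutive partner together, in FPKM, PSMB8 made up 2.21 ± 0.193% at DRCC 30 rpm, 4.03 ± 0.445% at DRCC 1 rpm, 0.752 ± 0.0662% in AggreWell and 0.551 ± 0.0283% in 2D in PANC-1 (SD, n = 3). PSMB9 made up 2.64 ± 0.159%, 2.57 ± 0.197%, 0.574 ± 0.175% and 0.329 ± 0.0842% of its pair in PANC-1, and 1.24 ± 0.407%, 1.77 ± 0.209%, 0.207 ± 0.0174% and 0.2802 ± 0.0577% in HEK293T. PSMB10 made up 9.97 ± 0.605%, 7.98 ± 0.368%, 8.19 ± 1.304% and 8.37 ± 0.893% in PANC-1. The constitutive transcript had the higher FPKM of each pair in every group.

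The 11S activator subunits rose with PSMB8 and PSMB9 in PANC-1. PSME1 had 36.6, 36.7 and 40.3 FPKM at DRCC 30 rpm, 37.4, 35.8 and 35.9 at DRCC 1 rpm, 17.04, 19.4 and 17.7 in AggreWell and 13.5, 15.4 and 15.97 in 2D. Its partner PSME2 had 55.4, 56.9 and 57.2, 54.9, 54.7 and 55.8, 42.9, 43.2 and 40.7 and 38.2, 41.4 and 41.6 FPKM in the same order. Both genes were higher in every DRCC library than in any AggreWell or 2D library. PSME1 rose by 1.29 ± 0.060 and 1.23 ± 0.060 on the log2 scale at DRCC 30 and 1 rpm (limma adjusted p = 1e-10 and 1.6e-10), and PSME2 by 0.48 ± 0.034 and 0.44 ± 0.034 (adjusted p = 9.8e-09 and 2.1e-08).

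In HEK293T the same activator genes were lower than in 2D. PSME1 had 47.4, 43.9 and 41.2 FPKM at DRCC 30 rpm, 35.8, 33.9 and 34.2 at DRCC 1 rpm, 39.1, 40.03 and 42.9 in AggreWell and 50.3, 48.7 and 47.2 in 2D. PSME2 had 53.1, 51.9 and 54.5, 49.7, 50.2 and 51.8, 56.98, 54.1 and 58.5 and 75.7, 75.4 and 77.03 FPKM. PSME2 in 2D stood clear of all other formats, while PSME1 at DRCC 30 rpm overlapped 2D and its change of -0.14 ± 0.049 turned to 0.039 under quantile normalization and 0.29 with the GC and length trend removed. The test of the line difference gave 1.43 ± 0.083 for PSME1 and 0.98 ± 0.047 for PSME2 at DRCC 30 rpm (limma interaction, adjusted p = 1.3e-12 and 4.4e-14), and 1.71 ± 0.083 and 1.02 ± 0.047 at DRCC 1 rpm (adjusted p = 9.9e-14 and 3.9e-14). In 2D both genes were lower in PANC-1 than in HEK293T, by -1.65 ± 0.059 and -0.90 ± 0.033 on the log2 scale.

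**Figure D3:**
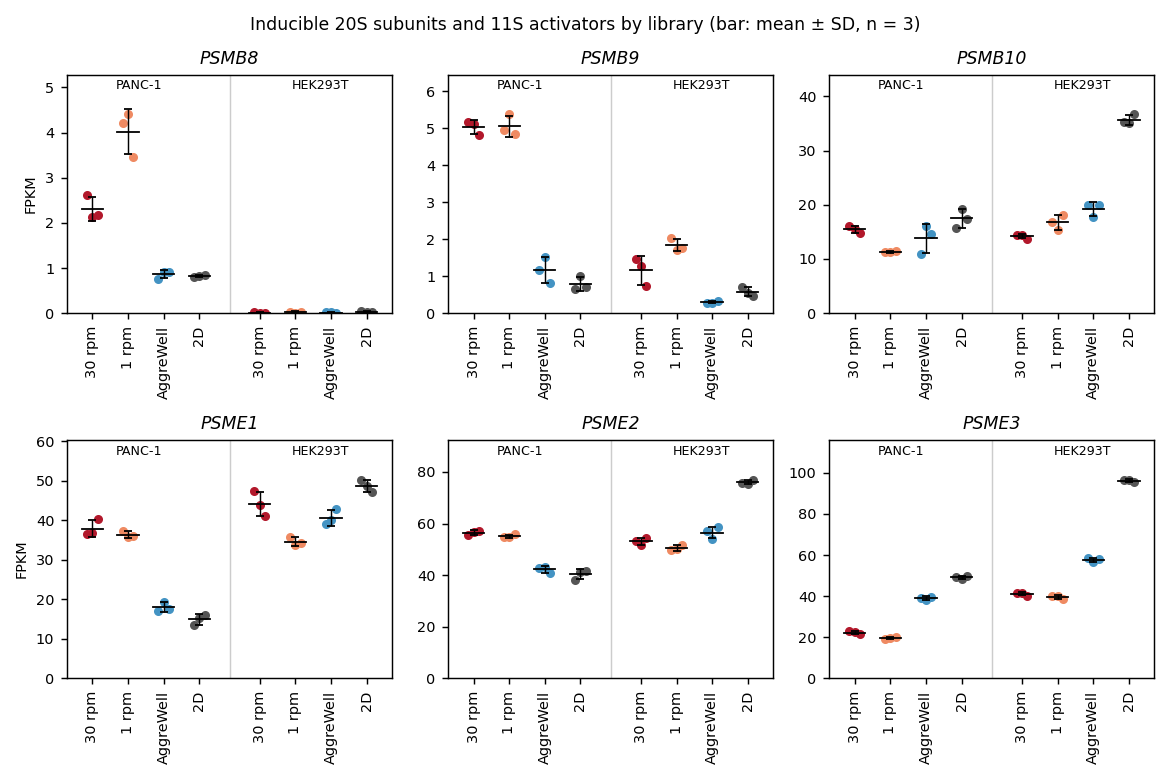
FPKM in each library (points) with the mean (line) and SD (error bar) of 3 libraries for PSMB8, PSMB9, PSMB10, PSME1, PSME2 and PSME3, by format within each line. In PANC-1 the DRCC libraries of PSMB8, PSMB9, PSME1 and PSME2 lie above AggreWell and 2D, whereas PSMB10 and PSME3 do not share this.

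Promoter windows are printed for the inducible subunits and activators because 4 of these genes share one exact string of letters near their start. RefSeq (GRCh38.p14) gave 49 promoter windows of 300 bases for 40 of the members. The string GAAAGCGAAA, on either strand, was present in 5 windows (10.2%), those of PSMB8, PSMB10, PSME1, PSME2 and PSMG4, and in 35 of all 35116 promoters (0.0997%). The string was picked because it was the match most often found in these very windows, so its 2 shares are a description and compare nothing. It is one form of the interferon-stimulated response element core (GAAA, any pair of bases, GAAA), searched after the values were seen, which was in 7 member windows (14.3%) and 3.57% of all promoters. Each window below runs from 100 bases before the annotated start to 30 after it, 5′ to 3′ on the gene's strand, with the string or its reverse complement in capitals.
PSMB8, chr6:32844018-32844147, minus strand: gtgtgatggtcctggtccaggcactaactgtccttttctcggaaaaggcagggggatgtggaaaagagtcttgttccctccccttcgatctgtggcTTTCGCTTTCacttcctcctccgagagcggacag
PSME1, chr14:24136094-24136223, plus strand: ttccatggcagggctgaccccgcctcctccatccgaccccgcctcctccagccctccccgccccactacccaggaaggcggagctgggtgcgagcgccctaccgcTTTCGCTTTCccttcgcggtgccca
PSME2, chr14:24146581-24146710, minus strand: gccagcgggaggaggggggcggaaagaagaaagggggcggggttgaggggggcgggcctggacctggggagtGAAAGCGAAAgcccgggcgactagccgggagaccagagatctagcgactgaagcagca
PSMB10, chr16:67936821-67936950, minus strand: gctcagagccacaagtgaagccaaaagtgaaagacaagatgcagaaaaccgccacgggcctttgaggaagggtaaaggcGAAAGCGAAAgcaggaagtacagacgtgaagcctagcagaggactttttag

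The letters begin at base 6 of the transcript in PSME1 and 4, 28 and 21 bases before the start in PSMB8, PSME2 and PSMB10. A match is a description of letters, not a bound site. PSMB8, PSME1 and PSME2 rose in the PANC-1 DRCC libraries, whereas PSMB10, with the same letters, did not, and PSMB9, whose windows lack them, rose most. PSMG4, the remaining gene with the string, was near 1 FPKM in PANC-1, at 1.35 ± 0.152 FPKM at DRCC 30 rpm, 1.01 ± 0.0439 at DRCC 1 rpm, 1.18 ± 0.0378 in AggreWell and 1.25 ± 0.148 in 2D. The letters TTCNNNGAA of the interferon-gamma activation site were in 7 member windows (14.3%), beside 7.66% of all promoters. The letters TGANNNNGC of the antioxidant response element, to which NFE2L1 and its relatives bind, were in 30 member windows (61.2%), beside 41.8% of all promoters.

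Other genes of MHC class I presentation moved with the inducible subunits in PANC-1. All 10 tested were higher at DRCC 30 rpm and all 10 at DRCC 1 rpm, with median log2 changes of 0.96 and 0.86, while AggreWell had 5 higher and 2 lower and a median of 0.087. ERAP2 reached 1 FPKM only at DRCC 1 rpm, so it passed the filter through the group where it was high. All genes tested had 53.6% and 52.3% higher at 30 and 1 rpm and 45.9% in AggreWell, near the share of this list there. Under the other scalings at least 8 of 10 stayed higher at both speeds, with ERAP1 turned lower at DRCC 30 rpm by quantile normalization. The class I heavy chains led at DRCC 30 rpm, with HLA-B at 1.66 ± 0.14, HLA-E at 1.44 ± 0.024 and HLA-C at 1.40 ± 0.038 on the log2 scale. In HEK293T 1 of 9 was higher and 6 lower at DRCC 30 rpm, and 3 higher and 5 lower at DRCC 1 rpm, beside 49.6% and 53.1% of all genes higher and 35.5% and 31.7% lower. TAP1, which carries peptides into the endoplasmic reticulum, changed by 1.35 ± 0.043 in PANC-1 and by -1.21 ± 0.045 in HEK293T at DRCC 30 rpm (limma adjusted p = 2.3e-12 and 2.8e-11).

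Only part of an interferon list was expressed. Of 11 response genes, 5 passed the filter in PANC-1, all 5 higher at both DRCC speeds, against 4 higher and 1 lower at DRCC 30 rpm under median-ratio scaling. All genes tested had 53.6% and 52.3% higher at 30 and 1 rpm. IRF1, a transcription factor that interferon-gamma induces, rose by 1.89 ± 0.054 at DRCC 30 rpm and 3.32 ± 0.054 at DRCC 1 rpm (limma adjusted p = 8.1e-13 and 4.8e-15), and was -0.30 ± 0.054 in AggreWell. ISG15, a ubiquitin-like interferon-response protein, rose by 1.95 ± 0.052 and 1.49 ± 0.052, and IRF9 by 0.95 ± 0.076 and 1.01 ± 0.076. IFIT1, IFIT2, IFIT3, MX1, OAS1 and GBP1 did not pass the filter in PANC-1. In HEK293T 2 of 6 were higher and 1 lower at each DRCC speed, beside 49.6% and 53.1% of all genes higher, with IRF1 at -0.054 ± 0.050 and 0.0085 ± 0.050 (limma adjusted p = 0.32 and 0.88) and IFIT1 at -0.75 ± 0.057 and -0.62 ± 0.057. IFIT1 reached 1 FPKM in HEK293T only in 2D, so it passed the filter there through the group where it was high. Of the leukocyte markers PTPRC, CD3E, CD14 and LYZ, CD14 made up nearly all of the sum. CD14 lay at 0.548 to 1.12 FPKM at DRCC 30 rpm, 0.286 to 0.831 at DRCC 1 rpm, 1.21 to 1.99 in AggreWell and 0.584 to 1.11 in 2D in PANC-1. The summed list was highest in AggreWell, at 1.21 to 1.99 FPKM, and overlapped 2D at both DRCC speeds. PTPRC, CD3E and LYZ stayed under 0.0205 FPKM in every library.

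The 19S particle was lower in spheroids as well. Without PSMC4, treated below, its 16 ATPase and non-ATPase genes summed to 1227 ± 2.93 FPKM at DRCC 30 rpm, 1176 ± 12.6 at DRCC 1 rpm, 1529.8 ± 16.5 in AggreWell and 1851 ± 9.65 in 2D in PANC-1. HEK293T gave 977 ± 9.18, 1005 ± 18.5, 1115 ± 6.28 and 1369 ± 23.98 FPKM. Of the 6 ATPases, 5 were lower and 1 higher at both DRCC speeds in PANC-1, and 4 lower and 2 higher in HEK293T. Of the 11 non-ATPases, 10 were lower at each DRCC speed in PANC-1, and 8 at DRCC 30 rpm and 9 at DRCC 1 rpm in HEK293T. All genes tested had 32.2% and 33.9% lower at 30 and 1 rpm in PANC-1, and 35.5% and 31.7% in HEK293T. The shares higher were 53.6% and 52.3% in PANC-1, and 49.6% and 53.1% in HEK293T.

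PSMC3, an ATPase of the 19S base ring, fell most among the core and cap genes at both DRCC speeds in PANC-1, though not in AggreWell. It had 62.7, 61.8 and 65.4 FPKM at DRCC 30 rpm, 56.4, 53.9 and 56.2 at DRCC 1 rpm, 104, 103 and 106 in AggreWell and 137, 137 and 142 in 2D in PANC-1, and 65.9, 62.2 and 63.9, 69.2, 67.2 and 72.3, 79.5, 78.5 and 77.3 and 126, 123 and 125 FPKM in HEK293T. The formats did not overlap in either line. Its log2 change at DRCC 30 rpm was -1.12 ± 0.028 in PANC-1 and -0.95 ± 0.030 in HEK293T (limma adjusted p = 2.4e-13 and 5.7e-12).

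PSMC6, another ATPase of the same ring, did the reverse. It had 16.1, 14.8 and 15.9 FPKM at DRCC 30 rpm, 18.4, 18.9 and 18.5 at DRCC 1 rpm, 24.003, 23.7 and 23.9 in AggreWell and 11.3, 11.6 and 11.8 in 2D in PANC-1, and 25.3, 24.8 and 24.5, 19.7, 20.4 and 20.4, 18.8, 19.4 and 19.5 and 8.801, 9.35 and 9.77 FPKM in HEK293T. 2D was lowest in both lines, while the highest format was AggreWell in PANC-1 and DRCC 30 rpm in HEK293T. The log2 change was 0.40 ± 0.033, 0.64 ± 0.033 and 0.98 ± 0.033 at DRCC 30 rpm, DRCC 1 rpm and in AggreWell in PANC-1, and 1.33 ± 0.036, 1.04 ± 0.036 and 0.97 ± 0.036 in HEK293T, with limma adjusted p-values from 1.3e-12 to 5.6e-08. It kept its direction under every scaling tried.

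Signs also differed among cap subunits that are named after their values were seen. PSMC2, an ATPase, was higher in AggreWell and lower at both DRCC speeds in PANC-1 (-0.28 at DRCC 30 rpm, -0.47 at DRCC 1 rpm, 0.27 in AggreWell), yet higher in all 3 formats in HEK293T (0.39, 0.43 and 0.31). PSMD14, the deubiquitinase that removes ubiquitin chains at the pore, had the same signs, with 75.9, 73.4 and 73.7 FPKM at DRCC 30 rpm, 68.2, 75.2 and 70.1 at DRCC 1 rpm, 106, 111 and 110.2 in AggreWell and 79.6, 92.2 and 91.8 in 2D in PANC-1. HEK293T had 61.3, 62.6 and 61.8, 66.98, 69.9 and 69.5, 57.9, 59.9 and 55.98 and 38.8, 39.4 and 40.2 FPKM. All PSMD14 spheroid libraries of HEK293T were above 2D, and in PANC-1 the DRCC libraries were below it and AggreWell above it. The line difference for PSMD14 was -0.87 ± 0.062 at DRCC 30 rpm and -1.08 ± 0.062 at DRCC 1 rpm (limma interaction, adjusted p = 3.2e-11 and 1.2e-12). PSMD1, a scaffold of the cap, was higher than 2D in AggreWell in both lines (0.35 in PANC-1 and 0.66 in HEK293T) and lower at DRCC 30 rpm (-0.24 and -0.28).

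Among the non-ATPases, PSMD2 and PSMD3 changed most in HEK293T at DRCC 30 rpm, and PSMD13 and PSMD2 in PANC-1. PSMD2, a ubiquitin-receptor scaffold, had 204, 201 and 202 FPKM at DRCC 30 rpm, 217, 215 and 219 at DRCC 1 rpm, 259, 261 and 264 in AggreWell and 335, 349.8 and 349.9 in 2D in PANC-1. In HEK293T it had 50.4, 51.7 and 49.4, 59.1, 55.6 and 58.6, 91.3, 88.6 and 87.7 and 113, 113 and 114 FPKM. The order DRCC 30 rpm, DRCC 1 rpm, AggreWell and 2D from lowest to highest held without overlap in both lines. PSMD3, a lid subunit, averaged 72.5 ± 2.05 FPKM at DRCC 30 rpm, 62.3 ± 2.66 at DRCC 1 rpm, 78.05 ± 2.19 in AggreWell and 101 ± 6.21 in 2D in PANC-1, and 80.2 ± 1.01, 77.3 ± 1.05, 119.995 ± 1.05 and 161 ± 5.26 FPKM in HEK293T. At DRCC 30 rpm the log2 change of PSMD2 was -0.77 ± 0.023 and -1.15 ± 0.028, and that of PSMD3 -0.47 ± 0.043 and -0.99 ± 0.026, in PANC-1 and HEK293T (limma adjusted p at most 1.5e-07).

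The DRCC differed from AggreWell too, in the same downward direction for most members. In PANC-1, 32 of 46 were lower and 7 higher at DRCC 30 rpm than in AggreWell, beside 37.8% and 45.4% of all genes. At DRCC 1 rpm 37 were lower and 7 higher, beside 38.4% and 43.7%. All 31 constitutive barrel and cap genes were lower at DRCC 1 rpm than in AggreWell in PANC-1, a count that was 31 under median-ratio scaling and 28 under quantile normalization, where 1 was higher. HEK293T had 28 of 44 lower and 9 higher at DRCC 30 rpm, beside 38.7% and 39.9%, and 28 lower and 9 higher at DRCC 1 rpm, beside 33.8% and 41.8%. Between the speeds, 30 rpm against 1 rpm, 23 members were higher and 11 lower in PANC-1, beside 36.2% and 31.9%, but quantile normalization left 10 higher. HEK293T had 6 higher and 15 lower, beside 19.6% and 32.9%, with 13 higher under median-ratio scaling.

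The chaperones that assemble the particles did not move as 1 group. PSMG1, which with PSMG2 builds the alpha ring, had 13.1, 12.3 and 11.8 FPKM at DRCC 30 rpm, 11.3, 11.7 and 12.1 at DRCC 1 rpm, 24.01, 27.1 and 25.5 in AggreWell and 27.5, 27.6 and 28.2 in 2D in PANC-1. Both DRCC speeds were below all AggreWell and 2D libraries, by -1.10 ± 0.045 and -1.18 ± 0.045 on the log2 scale against 2D (limma adjusted p = 2.7e-11 and 1.3e-11). HEK293T had 58.4, 55.6 and 56.5, 53.7, 55.1 and 55.4, 49.6, 46.95 and 49.2 and 68.1, 69.5 and 69.2 FPKM, a change of -0.27 ± 0.029 at DRCC 30 rpm, and the line difference was -0.83 ± 0.055 (limma adjusted p = 9.9e-12). PSMG2, its partner, changed by -0.18 in PANC-1 and 0.13 in HEK293T at DRCC 30 rpm, values whose sign turned with the GC and length trend removed in PANC-1 and under median-ratio scaling in HEK293T.

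PSMG3, which with PSMG4 guides alpha ring assembly, had 39.2, 39.5 and 39.7 FPKM at DRCC 30 rpm, 25.8, 26.04 and 23.6 at DRCC 1 rpm, 22.2, 20.6 and 22.2 in AggreWell and 20.5, 22.3 and 23.8 in 2D in PANC-1. DRCC 30 rpm stood apart from the other formats there, and 2D overlapped both DRCC 1 rpm and AggreWell. In HEK293T it had 46.5, 50.1 and 44.9, 57.7, 58.4 and 60.4, 53.4, 53.6 and 53.8 and 64.7, 65.7 and 64.5 FPKM, with DRCC 30 rpm lowest. The log2 change at DRCC 30 rpm was 0.81 ± 0.050 in PANC-1 and -0.46 ± 0.035 in HEK293T, and the line difference 1.26 ± 0.064 (limma adjusted p = 1.3e-13). At DRCC 1 rpm its PANC-1 change of 0.17 went to -0.0017 under median-ratio scaling.

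Of the 19S assembly chaperones, PSMD9 averaged 12.2 ± 0.0713 FPKM at DRCC 30 rpm, 9.11 ± 0.187 at DRCC 1 rpm, 11.1 ± 0.113 in AggreWell and 12.7 ± 0.548 in 2D in PANC-1. In HEK293T it averaged 19.97 ± 0.424, 18.7 ± 1.25, 21.2 ± 0.741 and 29.3 ± 0.984 FPKM. DRCC 30 rpm overlapped 2D in PANC-1 (-0.059 ± 0.034, limma adjusted p = 0.11) and was below it in HEK293T (-0.53 ± 0.045, adjusted p = 1.2e-07). PSMD10, also named gankyrin, averaged 70.04 ± 0.674 FPKM at DRCC 30 rpm, 83.1 ± 0.527 at DRCC 1 rpm, 82.6 ± 3.58 in AggreWell and 79.1 ± 5.13 in 2D in PANC-1, and 121 ± 2.403, 135 ± 2.42, 159 ± 3.45 and 168 ± 1.89999 FPKM in HEK293T. It was lower at DRCC 30 rpm in both lines, by -0.17 ± 0.041 and -0.47 ± 0.024, and overlapped 2D at DRCC 1 rpm and in AggreWell in PANC-1.

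The remaining activators split. PSME3, the nuclear activator REG-gamma, had 23.03, 22.5 and 21.4 FPKM at DRCC 30 rpm, 19.4, 19.5 and 20.4 at DRCC 1 rpm, 39.2, 38.2 and 39.9 in AggreWell and 49.5, 48.5 and 49.9 in 2D in PANC-1. HEK293T gave 41.6, 41.5 and 40.3, 39.9, 40.2 and 38.7, 58.4, 56.7 and 58.1 and 96.7, 96.4 and 95.5 FPKM. DRCC libraries were less than 0.5 of the 2D level in every PANC-1 and HEK293T library, with AggreWell between them and 2D. The log2 changes at DRCC 30 and 1 rpm were -1.11 ± 0.031 and -1.27 ± 0.031 in PANC-1 and -1.21 ± 0.025 and -1.26 ± 0.025 in HEK293T (limma adjusted p from 1e-13 to 7.2e-13). The line difference at DRCC 1 rpm was -0.015 ± 0.039 (limma adjusted p = 0.73).

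PSME4, the large monomeric activator PA200, rose instead. It had 30.02, 30.7 and 29.3 FPKM at DRCC 30 rpm, 44.1, 44.1 and 44.4 at DRCC 1 rpm, 32.9, 32.3 and 33.5 in AggreWell and 26.2, 26.8 and 26.7 in 2D in PANC-1, and 21.5, 22.5 and 21.2, 22.2, 20.9 and 21.9, 19.1, 18.7 and 18.4 and 10.03, 9.83 and 9.86 FPKM in HEK293T. Every spheroid library was above every 2D library of its line. The log2 change was 1.06 ± 0.033 at DRCC 30 rpm and 1.06 ± 0.033 at DRCC 1 rpm in HEK293T, and 0.71 ± 0.025 at DRCC 1 rpm in PANC-1, while the PANC-1 change at DRCC 30 rpm, 0.17 ± 0.025, turned to -0.027 under median-ratio scaling. PSMF1, the inhibitor PI31, averaged 14.1 ± 0.489 FPKM at DRCC 30 rpm, 14.97 ± 0.272 at DRCC 1 rpm, 16.4 ± 0.463 in AggreWell and 17.3 ± 0.6398 in 2D in PANC-1, and 12.4 ± 0.0576, 12.8 ± 0.487, 18.1 ± 0.4703 and 22.4 ± 0.632 FPKM in HEK293T. It was lower at both DRCC speeds in both lines, by -0.27 and -0.19 in PANC-1 and -0.80 and -0.76 in HEK293T at 30 and 1 rpm.

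Of 8 genes of the NFE2L1 axis (NFE2L1 and NFE2L2, their small MAF partners and the factors that process NFE2L1), 6 were higher and 1 lower at DRCC 30 rpm in PANC-1, 7 higher and 1 lower at DRCC 1 rpm, and 4 higher and 3 lower in AggreWell. All genes tested had 53.6%, 52.3% and 45.9% higher in these comparisons, so the AggreWell count is near the share of all genes. DDI2, the protease that cleaves and activates NFE2L1, was the lower one at DRCC 30 rpm in PANC-1. In HEK293T all 8 were higher in each format, beside 49.6%, 53.1% and 48.6% of all genes at DRCC 30 rpm, DRCC 1 rpm and in AggreWell, except that MAFG in AggreWell turned lower under median-ratio scaling and quantile normalization. MAFF, a small MAF protein, rose by 2.76 ± 0.044 in PANC-1 and 1.64 ± 0.055 in HEK293T at DRCC 30 rpm (limma adjusted p = 3.1e-15 and 9.5e-12). NFE2L1 itself changed by 0.54 ± 0.030 and 0.37 ± 0.027, and NFE2L2 by 0.72 ± 0.024 and 1.45 ± 0.054. NFE2L1 is controlled largely by cleavage and turnover of the protein, which RNA levels do not show.

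Of 20 partner genes, 12 were lower and 4 higher at DRCC 30 rpm and 12 lower and 6 higher at DRCC 1 rpm in PANC-1, against 9 lower and 8 higher and 10 lower and 5 higher in HEK293T. AggreWell had 13 lower and 3 higher in PANC-1 and 10 lower and 5 higher in HEK293T. Of all genes, 32.2%, 33.9% and 24.1% were lower at DRCC 30 rpm, DRCC 1 rpm and in AggreWell in PANC-1, and 35.5%, 31.7% and 26.8% in HEK293T. VCP, the ATPase that extracts ubiquitinated proteins, changed by -0.81 ± 0.025 in PANC-1 and -1.15 ± 0.028 in HEK293T at DRCC 30 rpm (limma adjusted p = 1.5e-12 and 5.2e-13). USP14, a deubiquitinase of the cap, changed by -1.07 ± 0.031 and -0.46 ± 0.039, and UCHL5, another one, by 0.014 ± 0.047 and 0.88 ± 0.077. At DRCC 30 rpm all genes had 53.6% higher and 32.2% lower in PANC-1, and 49.6% and 35.5% in HEK293T. Beside these shares, the 4 ubiquitin genes had 1 higher and 1 lower in PANC-1 and 1 higher and 2 lower in HEK293T. Of 5 genes of ubiquitin activation and transfer, 1 was higher and 3 lower at DRCC 30 rpm in each line. UBA6, an E1 enzyme, changed by 0.49 ± 0.048 in PANC-1 and 1.67 ± 0.055 in HEK293T, and UBE2N, an E2 enzyme, was lower in both lines.

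Tests of the line difference itself (PANC-1 change minus HEK293T change, all 24 libraries) placed most members on one side or the other. At DRCC 30 rpm 24 of 46 members were higher and 18 lower, beside 42% and 37.5% of 13392 genes. DRCC 1 rpm gave 23 higher and 19 lower, beside 35.8% and 40%, and AggreWell 24 higher and 5 lower, beside 25% and 32%. The 46 include PSMB8 and PSMD5, which passed the filter through PANC-1 libraries alone. HEK293T libraries held 0 to 3 fragments of PSMB8 and 0 to 7 of PSMD5. For these genes the line difference mostly repeats the PANC-1 change and is no independent support. The constitutive beta genes fell less in PANC-1, with all 7 positive at both DRCC speeds and 6 in AggreWell. The line difference of the ATPases was negative for 6 of 6 at DRCC 30 rpm and 5 at DRCC 1 rpm, with 2 positive and 0 negative in AggreWell. These include PSMC6, which was higher than 2D in both lines, and PSMC2, which at both DRCC speeds was lower in PANC-1 and higher in HEK293T. With the GC and length trend removed, the line difference of PSMC1 turned to 0.060 at DRCC 30 rpm and that of PSMC5 to -0.014 in AggreWell. Over all genes the line difference at DRCC 30 rpm had a rank correlation of 0.50 with GC content. PSMB6 (0.80) stood at the top of the beta genes and PSMC6 (-0.93) at the bottom of the ATPases at 30 rpm. Comparing the lines directly in 2D, 20 members were higher and 21 lower in PANC-1 than in HEK293T, beside 34.7% and 56.1% of all genes. PSMB8 and PSMD5 entered that comparison too through PANC-1 libraries alone.

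Levels in 2D set 2 members apart, singled out after their values were seen. PSMC4, an ATPase of the 19S ring, was by far the most abundant member in PANC-1, with 867, 877 and 894 FPKM at DRCC 30 rpm, 849.7, 832 and 854 at DRCC 1 rpm, 1283, 1294 and 1271 in AggreWell and 1795, 1718 and 1700.3 in 2D. HEK293T had 54.8, 56.4 and 54.3, 59.1, 51.6 and 59.5, 68.1, 63.1 and 65.98 and 89.2, 85.96 and 89.3 FPKM. The lowest PANC-1 library was thus many times above the highest HEK293T library. In PANC-1 2D only 23 genes of the table had a higher mean, against 770 in HEK293T 2D. The next member in PANC-1 2D was PSMB4 at 377 FPKM, and the median member stood at 61.5 FPKM. PANC-1 exceeded HEK293T in 2D by 4.29 ± 0.039 on the log2 scale (limma adjusted p = 1.2e-27). The change with format was still downward in both lines, at -0.98 ± 0.025 and -0.67 ± 0.048 at DRCC 30 rpm.

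The neighbours of PSMC4 on chromosome 19 were raised in PANC-1 as well. Of the 10 genes on each side in RefSeq order, 13 were tested. In PANC-1 2D 11 were higher and 2 lower than in HEK293T 2D, beside 34.7% and 56.1% of all genes. Their median log2 difference was 2.19, beside -0.27 over all genes. AKT2, a kinase gene on one side, had 254 ± 7.05 FPKM in PANC-1 and 18.9 ± 0.573 in HEK293T, and FBL, which encodes the nucleolar methyltransferase fibrillarin, on the other, 3677 ± 91.8 and 621 ± 18.8 FPKM (SD, n = 3). C19orf47 and PLD3, beyond AKT2, were lower in PANC-1. Copy number was not measured here.

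**Figure D4:**
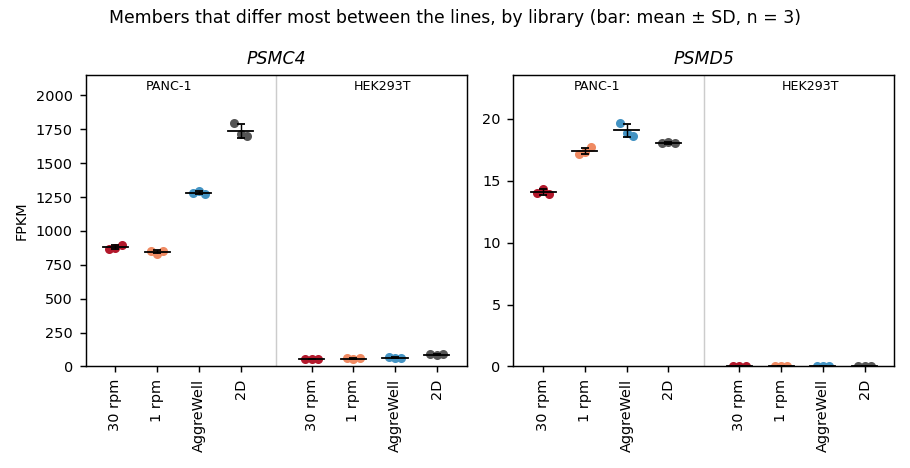
FPKM (linear axes) of PSMC4 and PSMD5 in each library (points) with the mean (line) and SD (error bar) of 3 libraries, by format within each line. PSMC4 lies between 832 and 1795 FPKM in PANC-1 and between 51.6 and 89.3 FPKM in HEK293T, and PSMD5 is at or near 0 in every HEK293T library.

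PSMD5, a chaperone that holds the ATPase ring during 19S assembly, was close to absent from HEK293T. It reached 1 FPKM only in PANC-1, so it passed the filter over all 24 libraries through the line where it was high. All 3 HEK293T 2D libraries had 0 fragments, and the others had 0 or 1 at DRCC 30 rpm, 0 to 7 at DRCC 1 rpm and 0 to 2 in AggreWell. PANC-1 libraries had 1724 to 1770 fragments at DRCC 30 rpm, 1977 to 2195 at DRCC 1 rpm, 2442 to 2541 in AggreWell and 2323 to 2410 in 2D. In FPKM these were 14.1 ± 0.21995, 17.4 ± 0.265, 19.1 ± 0.524 and 18.1 ± 0.0806 in PANC-1. Against a floor of 3 fragments a library, PSMD5 in 2D was at least 788-fold higher in PANC-1 than in HEK293T, a bound that covers counting error only. Its neighbours on chromosome 9 showed no such difference. Of 14 tested, 4 were higher and 9 lower in PANC-1, near the 34.7% and 56.1% of all genes. Their median was -0.43, beside -0.27 over all genes, and the highest was GSN at 2.17.

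**Figure D5:**
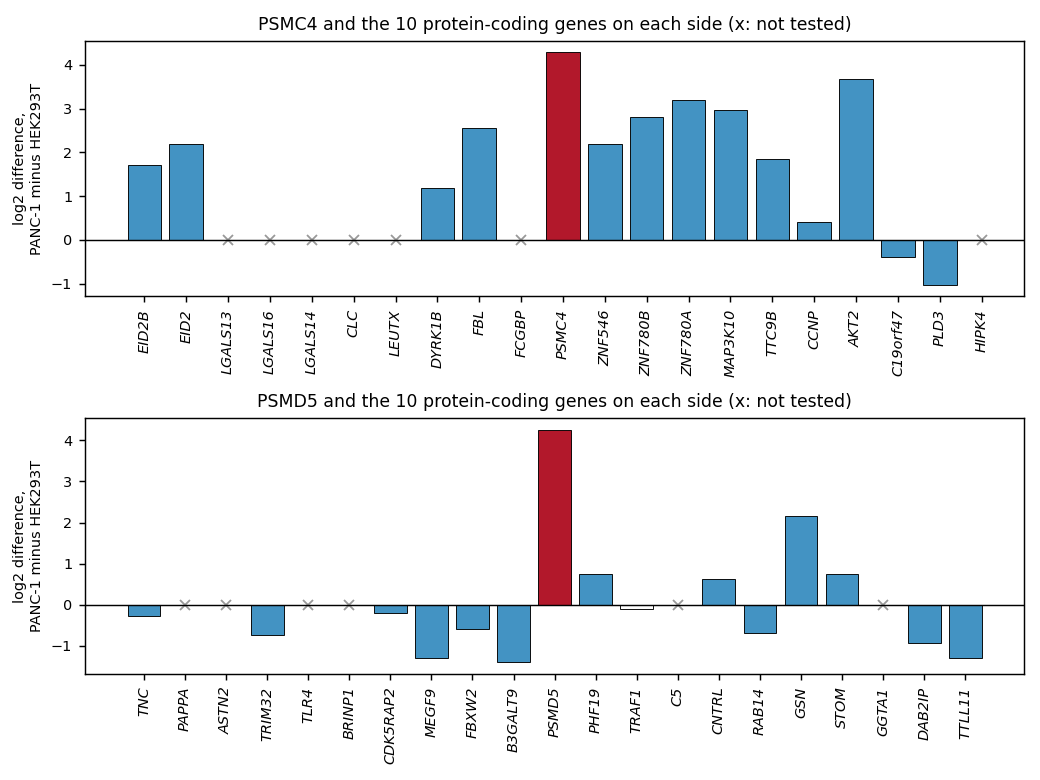
Log2 difference in 2D, PANC-1 minus HEK293T, of PSMC4 and PSMD5 (red) and of 10 genes on each side in RefSeq order, with called genes in blue, genes not called open and genes not tested as crosses. Genes around PSMC4 lie mostly above 0, with a median of 2.19, and those around PSMD5 on both sides of 0, with a median of -0.43.

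Members called higher and lower also differed in base composition. In HEK293T the median transcript GC content of higher and lower members was 41.2% and 51.2% at DRCC 30 rpm, 40.5% and 51.0% at DRCC 1 rpm, and 40.8% and 51.8% in AggreWell. PANC-1 AggreWell had 41.8% and 51.0%, whereas its DRCC comparisons had 51.8% and 47.8% at 30 rpm and 51.8% and 49.8% at 1 rpm. With the trend of all genes on GC and length removed, the 31 constitutive barrel and cap genes had 3 higher and 28 lower at DRCC 30 rpm in PANC-1 and 5 higher and 25 lower in HEK293T, against 3 and 28 and 6 and 24 without that step. Behind the HEK293T counts, PSMA4 and PSMD12 turned from higher to lower and PSMD4 from lower to higher. At DRCC 1 rpm HEK293T had 7 higher and 24 lower, against 5 and 25. There PSMC5, PSMD4 and PSMD7 turned to higher and PSMA4 to lower. Antisense partners are a further limit for unstranded counts, since the sources used here give no strand setting. PSMB8-AS1 stayed at or under 0.0797 FPKM PSMG3-AS1 at or under 0.682 FPKM and PSMD6-AS2 at or under 0.823 FPKM, while PSMA3-AS1 reached 13.1 FPKM in HEK293T and 9.11 FPKM in PANC-1. RefSeq lists pseudogenes for 21 of the members, and 0 of them had a row in the table, so reads shared with such copies could not be followed.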

How the data were processed

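24 libraries were made from total RNA and sequenced (TRIzol extraction, VAHTS Universal V10 library kit, per the labels' protocols). The authors deposited 1 table of FPKM values per gene and library. The submitters' processing notes name fastp, HISAT2, HTSeq and R 3.2.0, and the build mm10 although the table holds human symbols, and they do not say what each was used for. Strand and poly(A) selection are not stated in the labels read for this report. Whole fragments were recovered from the steps of the deposited FPKM values for 26449 of 26450 genes (tolerance 0.01 of a fragment), which gave the depth of each library. These counts served for depth, for floors and for one alternative test.

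FPKM values were tested as log2(FPKM + 1) with limma 3.58.1 in R 4.3.3 (moderated tests with an intensity trend, Benjamini-Hochberg adjustment over all genes tested, threshold 0.05). Genes entered with at least 1 FPKM in at least 3 libraries of the fit. Each line was fitted over its 12 libraries, and differences between lines over all 24. A log2(FPKM + 1) change understates the change of low genes. Tables were handled with Python 3.11.15, pandas 2.3.3 and numpy 2.4.6, and the fit was tested on simulated data.

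Values per library are given for the catalytic and inducible subunits, the activators and the inhibitor, and in each other class for the 2 members with the largest change at DRCC 30 rpm in either line. PSMC4, PSMD5 and the other members said to be named after their values were seen fall outside this rule. The members, classes and lists were chosen with earlier results of these data known. Alternatives were a pseudocount of 0.1, no filter, median-ratio scaling, quantile normalization, the replicate number as a block, limma-voom on the recovered fragments, leaving out each library in turn, and removal of the trend on GC content and length (GENCODE v29, splines of 4 degrees of freedom). Values of some single genes of the marker and pathway lists are not reported here.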

Additional observations from a re-analysis of the deposited data

Results flagged for a closer look

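Changes against 2D differed between the lines by the test of the difference itself (PANC-1 change minus HEK293T change, limma with Benjamini-Hochberg adjustment, n = 3 libraries a group). At DRCC 30 rpm 24 of 46 members were called above 0 and 18 below, beside 42% and 37.5% of all genes. At DRCC 1 rpm 23 were above 0 and 19 below, beside 35.8% and 40%, and in AggreWell 24 above and 5 below, beside 25% and 32%. The counts below 0 at the DRCC speeds are near the shares of all genes. PSMB8 and PSMD5 passed the filter through PANC-1 alone, so for them the difference mostly repeats the PANC-1 change.

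Some members were called in opposite directions in the lines, at about the rate of all genes. Of 44 members, 9.09% were higher in PANC-1 and lower in HEK293T at DRCC 30 rpm and 11.4% the reverse, beside 12.8% and 9.1% of 10752 genes. At DRCC 1 rpm 6.82% went each way, beside 8.35% and 8.34%, and in AggreWell 6.82% were higher in PANC-1 and lower in HEK293T, beside 4.41%.

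PSME1, a subunit of the 11S activator, had a log2 difference of 1.43 at DRCC 30 rpm, 1.71 at DRCC 1 rpm and 0.52 in AggreWell. Its fall in HEK293T turned to 0.29 at 30 rpm and 0.11 in AggreWell with the GC and length trend removed, and to 0.039 at 30 rpm under quantile normalization. Its partner PSME2 differed by 0.98 at DRCC 30 rpm and 1.02 at DRCC 1 rpm. PSMG3, an assembly chaperone, differed by 1.26 and 0.32 at 30 and 1 rpm, but at 1 rpm its change turned to -0.0017 in PANC-1 under median-ratio scaling and to 0.099 and 0.22 in HEK293T under quantile normalization and with the GC and length trend removed. PSMD6, a lid subunit, differed by 0.37 at DRCC 30 rpm, where HEK293T turned to 0.057 under quantile normalization, and by 0.23 in AggreWell, where PANC-1 turned to -0.040 under median-ratio scaling. PSMB9 differed by 0.54 in AggreWell, where HEK293T turned to 0.086 with the GC and length trend removed.

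Other members were lower in PANC-1 and higher in HEK293T. PSMD14, the lid deubiquitinase, differed by -0.87 at DRCC 30 rpm and -1.08 at DRCC 1 rpm. PSMC2 differed by -0.67 and -0.90, and PSMA3 by -0.42 and -0.57, at 30 and 1 rpm. PSMD12 and PSMG2 differed by -0.68 and -0.31 at DRCC 30 rpm. The opposite signs of these last members did not hold throughout. PSMD12 in HEK293T turned to -0.013 under median-ratio scaling and -0.32 with the GC and length trend removed. PSMG2 turned to -0.020 in HEK293T under median-ratio scaling and to 0.016 in PANC-1 with the GC and length trend removed.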

How the results depend on the processing

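No count of members called moved past 1.5 times with a pseudocount of 0.1, without the filter, under voom on recovered fragments or with a library left out. Leave-one-out counts against 2D in PANC-1 were 33 to 35 lower at DRCC 30 rpm, 33 to 34 at DRCC 1 rpm and 24 to 26 in AggreWell; in HEK293T they were 32 to 33, 32 to 35 and 31 to 33. Quantile normalization gave 10 members higher for 30 against 1 rpm in PANC-1 and 8 below 0 for the AggreWell line difference. Median-ratio scaling gave 13 higher for 30 against 1 rpm in HEK293T. Removing the GC and length trend, an alternative chosen after seeing the data, gave 11 higher at DRCC 1 rpm against 2D in HEK293T and 10 below 0 for the AggreWell line difference. The cause was not tested.

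Replicate numbers did not pair the PANC-1 libraries: same-numbered libraries correlated at -0.0916 to 0.106, beside -0.169 to 0.181 for different numbers. In HEK293T same-numbered libraries correlated at -0.0966 to 0.43 (median 0.0729), beside -0.32 to 0.226 (median -0.0356) for different numbers. Libraries numbered 2 of 2D, AggreWell and DRCC 1 rpm correlated at 0.23 to 0.43 there, so the numbers may pair some HEK293T libraries. With the number as a block, PANC-1 had 9 higher and 33 lower at DRCC 30 rpm, 9 and 34 at DRCC 1 rpm and 11 and 26 in AggreWell.

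Signs against 2D turned for log2 changes that include the following, among them falls of barrel and cap genes. Under quantile normalization PSMB1 turned to 0.068 in PANC-1 AggreWell, and PSMA1 to 0.063 and PSMD7 to 0.046 in HEK293T AggreWell. PSMD4 turned to 0.070 and PSMD7 to 0.17 in HEK293T at 1 rpm, and PSMD4 to 0.057 at 30 rpm. With the GC and length trend removed, PSMD7 turned to 0.10 in HEK293T AggreWell. PSMC5 turned to 0.11, PSMD4 to 0.145 and PSMD7 to 0.145 in HEK293T at 1 rpm, and PSMD4 to 0.11 at 30 rpm. Quantile normalization turned PSMB8 (-0.21 in PANC-1 AggreWell), PSME1 (0.039 in HEK293T at 30 rpm), PSMD10 (0.22 in HEK293T AggreWell, 0.030 in HEK293T at 1 rpm), PSMG3 (0.099 in HEK293T at 1 rpm), PSMA2 (0.073 in PANC-1 at 1 rpm) and PSMD6 (0.10 in PANC-1 at 1 rpm, 0.057 in HEK293T at 30 rpm). Median-ratio scaling turned PSME4 (-0.027 in PANC-1 at 30 rpm), PSMD5 (-0.059) and PSMD6 (-0.040) in PANC-1 AggreWell, PSMA2 (-0.15 in HEK293T AggreWell), PSMA4 (-0.044 in PANC-1 and -0.052 in HEK293T at 1 rpm), and at 1 rpm in PANC-1 PSMD10 (-0.11), PSMG3 (-0.0017) and PSMG2 (-0.098). It also turned PSMD12 (-0.013) and PSMG2 (-0.020) in HEK293T at 30 rpm. Removing the GC and length trend turned PSMB9 (0.086), PSME1 (0.11), PSMA2 (-0.15) and PSMD12 (-0.12) in HEK293T AggreWell, and PSMD12 (-0.10) and PSMG2 (0.085) in PANC-1 AggreWell. It turned PSME1 (0.29), PSMA4 (-0.24) and PSMD12 (-0.32) in HEK293T at 30 rpm, PSMG3 (0.22), PSMA4 (-0.28), PSMD12 (-0.31) and PSMG2 (0.31) in HEK293T at 1 rpm, PSMD9 (0.086) and PSMG2 (0.016) in PANC-1 at 30 rpm, and PSMD6 (0.17) in PANC-1 at 1 rpm. PSMB8 and PSMB9 rest on few fragments, which limits their precision.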
